A study of Mus musculus with 16 samples.

Results

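The genes of the cytosolic ribosomal proteins were examined in a list of accessible chromatin regions from mouse embryonic stem (ES) cells. Members were the autosomal protein-coding genes of GENCODE M21 whose symbol is Rpl or Rps with a number and optional letters, or Rpsa, Rplp0, Rplp1 or Rplp2, with ribosomal S6 kinases and names holding -ps left out. This gave 78 of 20807 autosomal protein-coding genes, on 18 chromosomes, and 96 of the 81132 regions had their centre within 1 kb of one of their transcription start sites (TSSs). The members comprised 31 genes of the small subunit, 44 of the large subunit and 3 of the stalk.

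The study used SBROS cells, a knock-in line on the CGR8 background in which both Sox2 alleles carry a SNAP-tag and 1 Oct4 allele carries a HALO-tag. The line was made from SBR cells and also carries their SOX1-P2A-eGFP and BRA-P2A-mCherry reporters. Cells were sorted by the levels of SOX2 and OCT4 in G1 phase. The groups were SHOH (both high), SHOL (SOX2 high, OCT4 low), SLOH (SOX2 low, OCT4 high) and SLOL (both low), with 3 ATAC-seq libraries each, and all cells were grown with serum, LIF, CHIR99021 and PD184352. ATAC-seq marks open chromatin by the insertion of sequencing adapters with the Tn5 transposase. All groups come from a single engineered line, so differences between ES cell lines are outside these data. The 12 libraries were merged into the list, which gives positions without a level, a score or a library, so the depth behind a region is unknown and the populations could not be compared. There are no replicates behind the values below, and the 95% intervals cover counting error only.

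Ribosomal proteins assemble with ribosomal RNA into the small subunit, which reads the mRNA, and the large subunit, which forms peptide bonds, while the stalk proteins recruit translation factors. Their genes are short and active in nearly all cells. The mRNAs typically begin with a C followed by a tract of pyrimidines, the 5′ terminal oligopyrimidine (TOP) motif, through which mTOR signalling controls their translation.

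The start sites show how runs of C or T near the annotated TSS vary among the members. Such a run can lie wholly before or after the TSS, and need not be a TOP motif. The sequences below run 5′ to 3′ on the strand of the gene, from 40 bases before the reference TSS through the first 25 transcribed bases (GRCm38, the assembly of mm10), and capitals mark the longest run of C or T that touches the 10 bases on either side of the TSS (the first, where runs tie). The first 4 are among the longest runs, the next 4 are a gene beside its retrogene or tissue-restricted paralog, and the last 3 are members with a run of 2 bases.
Rps24 (chr14:24490678-24490742, plus strand): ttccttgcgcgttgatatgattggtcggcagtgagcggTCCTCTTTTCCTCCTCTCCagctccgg
Rpl22 (chr4:152325827-152325891, plus strand): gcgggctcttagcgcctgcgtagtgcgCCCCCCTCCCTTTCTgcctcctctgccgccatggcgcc
Rpl26 (chr11:68901543-68901607, plus strand): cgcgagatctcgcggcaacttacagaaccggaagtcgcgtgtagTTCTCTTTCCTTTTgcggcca
Rpl4 (chr9:64173335-64173399, plus strand): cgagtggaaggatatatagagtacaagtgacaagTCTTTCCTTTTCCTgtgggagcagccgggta
Rps27 (chr3:90213627-90213691, minus strand): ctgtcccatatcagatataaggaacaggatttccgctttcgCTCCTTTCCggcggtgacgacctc
Rps27rt (chr9:114982715-114982779, minus strand): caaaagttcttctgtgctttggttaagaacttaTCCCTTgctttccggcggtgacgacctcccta
Rpl3 (chr15:80083382-80083446, minus strand): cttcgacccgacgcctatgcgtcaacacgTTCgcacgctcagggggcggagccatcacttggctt
Rpl3l (chr17:24727780-24727844, plus strand): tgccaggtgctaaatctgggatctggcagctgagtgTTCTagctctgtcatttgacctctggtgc
Rps9 (chr7:3703953-3704017, plus strand): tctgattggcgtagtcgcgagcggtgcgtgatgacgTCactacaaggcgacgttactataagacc
Rps13 (chr7:116334171-116334235, minus strand): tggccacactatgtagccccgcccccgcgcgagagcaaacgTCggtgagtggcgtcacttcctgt
Rpl41 (chr10:128549281-128549345, minus strand): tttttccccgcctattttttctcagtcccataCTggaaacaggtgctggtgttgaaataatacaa

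Rps24, a small subunit protein, had the longest run with 19 bases. Long runs were also found at the large subunit genes Rpl22, with 15 bases, and Rpl26 and Rpl4, with 14 each, and not every long run is named here. A run of at least 8 was present at 28 of 78 members (35.9%, 95% Wilson interval 26.1 to 47.0%) and at 13.6% of the other 20729 genes. The median run was 5 bases in the members and 4 in the other genes. At 10 members (12.8%) such a run included the TSS base itself, against 3.51% of other genes. The annotated first base was C at 26 members (33.3%) and at 17.6% of other genes. Runs under 5 were less frequent in members, at 29 (37.2%) against 54.8% of other genes. Among these members were Rps9, the reference gene of the study's qPCR, and Rpl15, Rpl21, Rpl24, Rpl30, Rpl41, Rps13 and Rps29, each with 2 bases. The share with a run of at least 8 depended on the start site used. With all start sites of protein-coding transcripts, where the longest run counts, it was 62.8% in members and 26.0% in others, and members had a median of 6 annotated TSSs against 3. A run of at least 10 at the reference TSS was found at 20.5% of members and 6.93% of others.

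**Figure D1:**
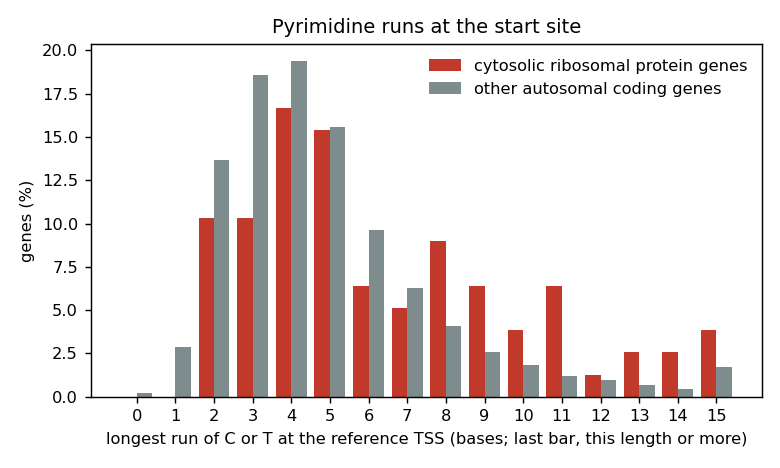
Longest run of C or T at the reference TSS (bases, x axis; the last bars hold runs of 15 or more) as the percentage of genes (y axis), for 78 ribosomal protein genes (red) and 20729 other autosomal coding genes (grey). Runs of at least 8 were found at 35.9% of the members and 13.6% of the others.

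Nearly all members had an accessible region at a start site. The count was 75 of 78 (96.2%, Wilson interval 89.3 to 98.7%), and 69.4% of the other genes had a region. By role it was 30 of 31 small subunit genes, 42 of 44 large subunit genes and 3 of 3 stalk genes. The members without a region were Rpl3l and Rpl39l, paralogs known from muscle and testis, and Rps27rt, an intronless retrogene copy of Rps27. The nearest region centre was at -7196.5 bp from the TSS of Rpl3l and at -3230.5 bp from that of Rps27rt, both upstream, and 22815.5 bp downstream of that of Rpl39l. Of their parent genes, Rps27 had 1 region, the X-linked Rpl39 had 1 and Rpl3 had 4. In Rpl3, 3 of these were centred from 262.5 to 1969 bp downstream of the reference TSS. The other was at -7792.5 bp, shared with the start of Syngr1. Only the region at 262.5 bp was within 1 kb of the reference TSS, and the rest count only through other annotated TSSs of Rpl3. Rpl10l, a testis paralog of Rpl10, did have a region, of 955 bp, which covered its TSS.

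The list was also read at processed pseudogenes, copies of ribosomal protein mRNAs inserted elsewhere without the promoter. Of 252 autosomal pseudogenes named for ribosomal proteins, 16 had a region within 1 kb (6.35%, Wilson interval 3.95 to 10.1%), close to the 6.53% of all 8924 processed pseudogenes. Within 500 bp the shares were 2.78% and 4.01%, and within 2 kb 11.9% and 11.7%. None of the 16 lay within 2 kb of a coding TSS. Of the 6 genes with -ps names that the annotation calls protein-coding, 0 had a region.

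The main region of a gene, the one centred closest to its reference TSS, was wide at ribosomal protein genes and reached into the gene. Its median width was 1077 bp (quartiles 863 and 1307.5 bp, 95% interval of the median 988 to 1157 bp), against 732 bp in other genes. Among the 75 members 45 (60.0%) were wider than 1 kb, against 20.3% of the 14379 other genes with a region. The upstream edge was at a median of -265 bp in members and -330 bp in others, and the downstream edge at 811 and 406 bp. A main region ended over 500 bp downstream of the TSS at 63 of 75 members (84.0%) and at 36.7% of other genes. It included the start codon at 63 members (84.0%) against 48.3%, and the whole first exon at 71 members (94.7%) against 59.0%. The shares were 85.9% and 94.9% in mitochondrial ribosomal protein genes and 84.2% and 86.8% in proteasome genes, whose downstream edges had medians of 446.5 and 422 bp. First exons are shorter in members, at a median length of 95.5 bp, than in all other genes, at 213 bp. The members' genes are short, with a median length of 3328.5 bp against 17758 bp.

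**Figure D2:**
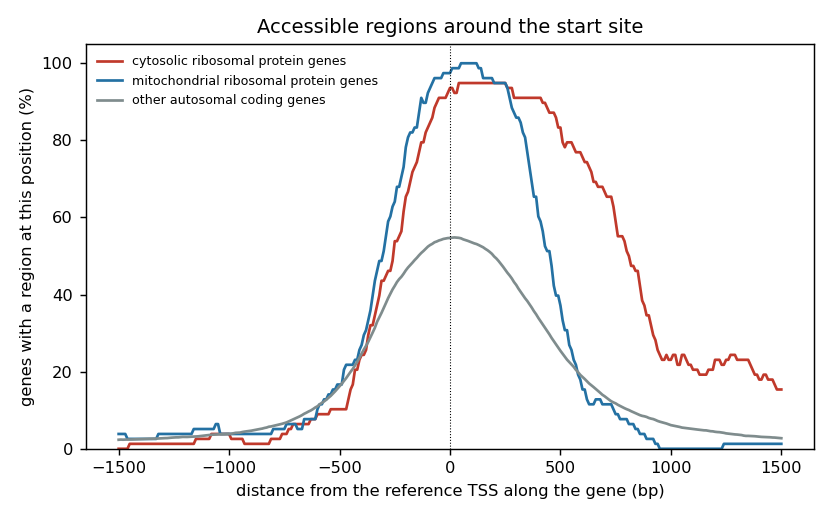
Percentage of genes with a region at each position (y axis) by distance from the reference TSS along the gene (bp, x axis), for cytosolic ribosomal protein genes (red), mitochondrial ribosomal protein genes (blue) and all other autosomal coding genes, with or without a region (grey). At 500 bp downstream the values were 83.3%, 37.2% and 25.4%.

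The main region covered the reference TSS at 73 of 75 members (97.3%, Wilson interval 90.8 to 99.3%) and at 78.6% of other genes with a region. The share was 97.4% in mitochondrial ribosomal protein genes and 94.7% in proteasome genes. In other TOP mRNA and translation genes and in ribosome biogenesis genes it was 100%. The centre of the main region was downstream of the reference TSS at 68 members (90.7%) against 58.2% of other genes. Its median distance downstream was 278.5 bp (quartiles 153 and 376.5 bp), against 41 bp in other genes. This distance rests on the choice of start site: from the closest TSS of any transcript, a choice that makes distances smaller by construction, the median was 47 bp in members and 1.5 bp in others. From the 5′ end of the gene record it was 306 bp in members and 93.5 bp in others. Among genes whose main region covers the reference TSS, an alternative chosen after seeing the data, the median width was 1085 bp against 793 bp and the median offset 278.5 bp against 34 bp.

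**Figure D3:**
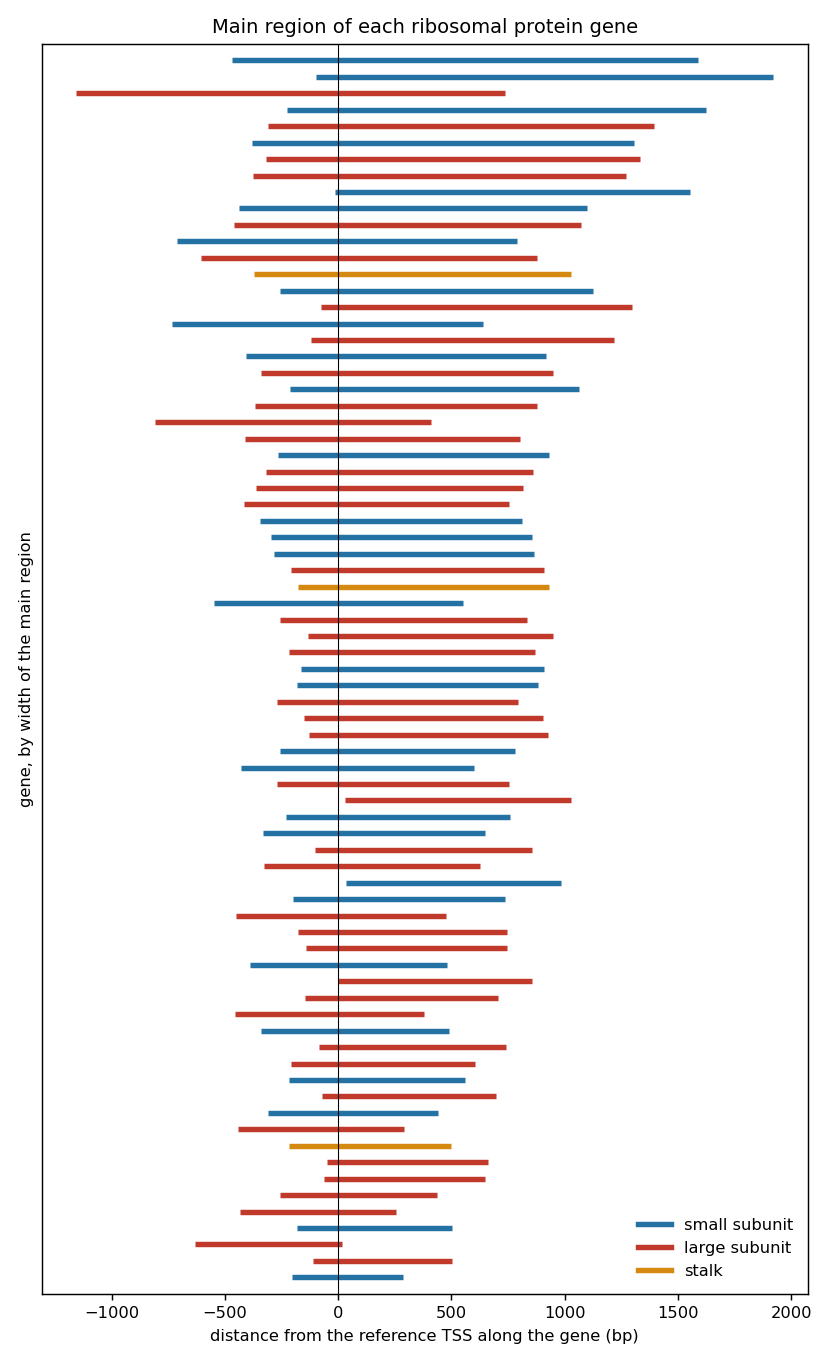
Main region of each of 75 ribosomal protein genes as a bar from its upstream to its downstream edge (distance from the reference TSS in bp, x axis), ordered by width and coloured by subunit. Most bars extend further downstream than upstream, and the widest is that of Rps2 (2060 bp).

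In the small subunit the median width was 1124.5 bp and in the large subunit 1056.5 bp. The widest main regions were those of Rps2 (2060 bp), Rpsa (2019 bp), Rpl7 (1894 bp), Rps26 (1849 bp) and Rpl28 (1709 bp). Rpsa, which also encodes the laminin receptor, had its centre 910 bp downstream, while that of Rpl7 was upstream, at -209.5 bp, in a region shared with the start of Rdh10. Among the narrowest were those of Rpl17 (614 bp), Rpl18 (651 bp), Rps15 (686 bp) and Rpl13a (689 bp). The stalk genes Rplp0, Rplp1 and Rplp2 had widths of 718, 1402 and 1109 bp. At Rps9 the main region was 1148 bp wide and reached from -282 to 865 bp. The only main regions that missed the reference TSS were those of Rpl35 and Rps10, which began 31 and 33 bp downstream of it.

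More than 1 region was found at 17 of 78 members (21.8%) and at 21.7% of all other genes. Among genes with a region, a base chosen after seeing the data, the share was 22.7% in members and 31.3% in others. Rpl21 and Rpl3 had 4 regions each, and Rpl15, Rpl18, Rpl19, Rpl4, Rpl9, Rps12 and Rps13 were among those with 2. At 13 of the 17 (76.5%) the additional regions all lay downstream of the reference TSS, against 66.4% of the 4498 other genes with several regions. These counts rest on the annotation, since a region centred over 1 kb from the reference TSS counts only through another annotated TSS. Members had a median of 6 annotated TSSs against 3. With the reference TSS only, regions at members numbered 78 instead of 96, and those at other genes 14458 instead of 18969. In Rpl21 they were 326, 507 and 522 bp wide and centred between 1408.5 and 2444.5 bp downstream, and 1 of them held a SOX motif.

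Other genes of protein synthesis were set beside the members. All 14 other TOP mRNA and translation genes, such as Eef1a1 and Eef2, had a region, with a median width of 1224.5 bp and a downstream edge at 611.5 bp, and 7 of the 14 had a pyrimidine run of at least 8. The 14 ribosome biogenesis genes, such as Ncl and Fbl, also all had a region, with a median width of 910.5 bp. All 78 mitochondrial ribosomal protein genes and all 38 proteasome subunit genes had regions too, with medians of 797.5 and 749 bp. Width and extent into the gene were thus also high in other TOP genes, and the lists were not tested against each other.

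**Figure D4:**
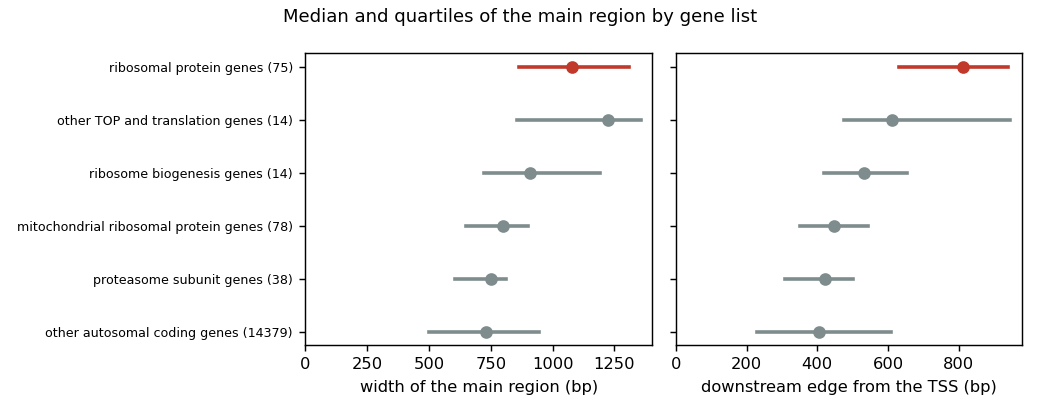
Width of the main region (left) and position of its downstream edge from the reference TSS (right), in bp, for 6 gene lists. Points are medians, bars span the quartiles and the number of genes with a region is in brackets; the members (red) have medians of 1077 and 811 bp.

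Some cytosolic ribosomal proteins are not among the members, because of their names or because their genes are X-linked. Of these, Rps3a1, Fau, the scaffold Rack1 and the X-linked Rpl10, Rpl36a, Rpl39 and Rps4x each had 1 region, which covered the TSS. Their widths ranged from 589 bp at Rps4x to 2733 bp at Rpl10. Among paralog pairs, Rps27 and Rps27l had widths of 1038 and 1031 bp. Rpl36al had 1221 bp and the X-linked Rpl36a 1003 bp. Rpl22 had 931 bp and Rpl22l1 1446 bp, while Rpl7 had 1894 bp and Rpl7l1 507 bp.

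A start site of another coding gene lay on the opposite strand within 1 kb at 14 of 78 members (17.9%, Wilson interval 11.0 to 27.9%), against 11.0% of other genes and 39.7% of mitochondrial ribosomal protein genes. The closest pairs were Rps28 with Ndufa7, a subunit of respiratory complex I, 10 bp apart, and Rpl12 with Lrsam1 and Rps25 with Trappc4, both 33 bp apart. Rps27 and Rab13 were 44 bp apart, Rpl9 and Lias 53 bp, Rpl15 and Nkiras1 69 bp, Rpl36al and Mgat2 74 bp, and Rps27a and Clhc1 83 bp. Within the gene bodies, 27 members (34.6%) hosted 54 small nucleolar or Cajal body RNA genes on their own strand, with 5 in Rpl4, and 1.14% of other genes hosted at least 1.

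Motifs were counted on both strands, as letters without regard to binding. The ETS core CCGGAA was in 59 of 75 main regions of members (78.7%) and in 42.9% of those of other genes. The SP core GGGCGG was in 66 (88.0%) against 79.8%, AAGATGG, a YY1 core, in 28 (37.3%) against 13.7%, and the NRF1 motif GCGCATGC in 10 (13.3%) against 6.94%. TATAAA was in 17 (22.7%) against 9.97%. The octamer ATGCAAAT, bound by OCT4, was in 1 (1.33%), that of Rpl23, against 2.09%. The SOX motif CCATTGT or CCTTTGT was in 10 (13.3%) against 13.7%; counting additional regions, Rpl21, Rpl36al, Rpl41, Rpl7, Rps19, Rps2, Rps26, Rps27a and Rps27l were among the genes with one.

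Because members' regions are wider, a window of equal length is the closer comparison. From 250 bp before to 50 bp after the TSS, ETS was present at 36 of 78 members (46.2%) against 18.4% of all other genes, YY1 at 11.5% against 6.34%, and SOX and the octamer at 0 members against 7.56% and 1.65%. Restricted to genes with a region, an alternative chosen after seeing the data, ETS was at 45.3% against 24.8%, YY1 at 12.0% against 6.61% and SOX at 0.00% against 6.10%. For SP, NRF1, TATAAA and the octamer, the order of members and others changed with the window or with the genes it was taken over. SOX was lower in members in each of these windows. In the main region its shares were close, at 13.3% against 13.7%, and with X-linked genes included they were 16.5% against 13.8%. SP was at 48.7% against 46.2% over all genes but at 50.7% against 62.4% over genes with a region, and TATAAA at 10.3% against 12.7% but at 10.7% against 7.40%. In the 400 bp around the region centre, which lies downstream of the TSS in most members, ETS was at 37.3% against 31.2% and YY1 at 21.3% against 8.78%. There SP was at 64.0% against 73.1%, NRF1 at 4.00% against 4.89%, TATAAA at 2.67% against 4.78% and SOX at 2.67% against 6.82%. The octamer was there at 1.33% of members, which is 1 gene, against 1.31%. ETS and YY1 had a higher share in members than in all other genes in each of these comparisons, but similar lists had high shares too, several of them above those of the members. At the TSS, ETS was at 55.1% of mitochondrial ribosomal protein genes and 42.1% of proteasome genes, and YY1 at 17.9% and 21.1%. Around the centre, ETS was at 59.0% and 42.1% of these lists, and YY1 at 20.5% and 31.6%. In the main regions of these lists, ETS was at 67.9% and 60.5%, and YY1 at 29.5% and 42.1%. In the other TOP mRNA and translation genes, ETS was at 85.7% in main regions, 28.6% at the TSS and 64.3% around the centre. SOX at the TSS was at 6.41% of mitochondrial ribosomal protein genes and 14.3% of ribosome biogenesis genes. It was at 0.00% of proteasome genes and of other TOP mRNA and translation genes.

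Position along the promoter was counted in bins of 25 bp. The bins named here are those with the most members or the most other genes, picked from the values. ETS was most frequent in members from 1 to 25 bp after the TSS, at 14 (17.9%) against 3.64% of other genes. In other genes it peaked from -25 to -1 bp, at 3.83% against 6 members (7.69%). YY1 was most frequent in members from 26 to 50 bp, at 6 (7.69%) against 1.04%, while other genes peaked from 1 to 25 bp, at 1.20% against 0 members. Between -50 and -15 bp, where TATA boxes lie, TATAAA was at 0 of 78 members and at 3.62% of others. It was there at 1.28% of mitochondrial ribosomal protein genes and at 0.00% of proteasome, other TOP mRNA and translation, and ribosome biogenesis genes. The median GC content of main regions was 59.7% in members and 62.3% in others, and the ratio of observed to expected CpG was 0.793 and 0.740.

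**Figure D5:**
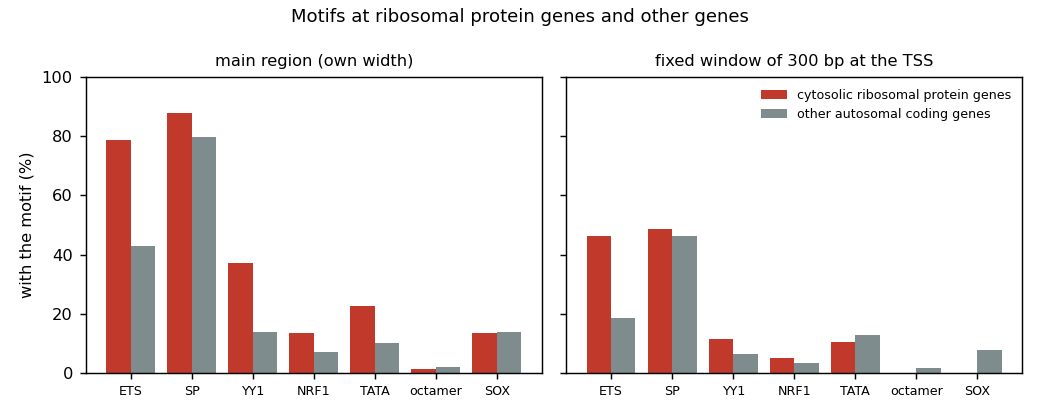
Percentage of main regions (left) and of fixed windows at the TSS (right, all genes) that hold each motif, for ribosomal protein genes (red) and other autosomal coding genes (grey). ETS was at 78.7% against 42.9% on the left and at 46.2% against 18.4% on the right, and SOX and octamer were at 0 members on the right.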

How the data were processed

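ATAC-seq was performed by the authors on 12 libraries. Per the submitters' processing notes and the methods, reads were aligned to mm10 with STAR (2.5.3a), duplicates were removed with Picard, peaks were called per library with MACS2 (2.1.1.20160309) and merged, and the authors discarded any peak that coincided with a peak of a ChIP input. The deposited list holds 3 columns, chromosome, start and end. None of the 4 ChIP-seq samples was used.

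Python (3.11.15) with numpy (2.4.6) read the list, intervals were computed with scipy (1.17.1) and plots drawn with matplotlib (3.10.9). No region passed the end of its GRCm38 chromosome. A region belonged to a gene when its centre lay within 1000 bp of a TSS of any transcript. The reference TSS was that of the transcript with the best APPRIS tag, then CCDS, basic tag, support level and length. Medians have order statistic intervals. The code was tested on simulated data. Members and lists were chosen with earlier results of these data known, and members are described by counts and medians beside all other autosomal coding genes, without a test.

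Genes were named by rule: members without a region, the 5 widest and 5 narrowest main regions, up to 10 with several regions, 8 closest opposite genes, the 5 longest runs and 8 with a run under 5, up to 10 with an octamer or SOX motif, Rps9, paralogs and the cytosolic ribosomal proteins left out by name or as X-linked. Rdh10, Syngr1, Rplp0 to Rplp2, Rpl35, Rps10, Rpl4 as snoRNA host, Rpsa's offset and the genes named as examples of other lists were added after their values were seen. Not every gene the rule takes is named in the text.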

Additional observations from a re-analysis of the deposited data

How the results depend on the processing

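For 15 results, 95 alternatives were run, 10 of them chosen after seeing the data (those limited to genes with a region or a covered TSS), and 66 stayed within the 95% interval of the value (counts: within 1.5 times). The share of members with a region was 96.2 or 96.3% and the number of regions 78 to 113 under each alternative. Joining regions up to 500 bp apart gave a median width of 1172 bp (other genes 826). From the closest TSS of any transcript the offset was 47 bp and the TSS was covered in 100% of members (others 87.0%), and from the 5′ end of the gene record in 90.7% (others 73.1%). The pyrimidine run was at 47.4% of members with at least 6 bases (others 29.5%), 20.5% with at least 10 and 62.8% over all coding start sites.

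Motif shares were lower in fixed windows, which are shorter than every main region of a member, except for the octamer around the centre. The window around the centre lies inside the main region of each member, so its shares could not be higher by construction. For the window at the TSS the cause was not tested. At the TSS they were 46.2% (ETS), 48.7% (SP), 11.5% (YY1), 5.13% (NRF1), 10.3% (TATA), 0.00% (octamer) and 0.00% (SOX), and for genes with a region alone 45.3, 50.7, 12.0, 5.33, 10.7, 0.00 and 0.00%. NRF1 was at 3.47 and 4.78% of the other genes in these windows. In 400 bp around the centre they were 37.3% (ETS), 64.0% (SP), 21.3% (YY1), 4.00% (NRF1), 2.67% (TATA) and 2.67% (SOX). Pseudogenes with a region were 2.78% within 500 bp and 11.9% within 2 kb.

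RefSeq start sites, chosen after seeing the data, gave no value, since 58 of 78 members had an entry, under the 80% required. No paired analysis was possible because no library has values of its own in the list. How many libraries support a region is not known, and annotated start sites limit every distance and run.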
